A study of Mus musculus with 16 samples.

Results

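The constitutive androstane receptor CAR (gene Nr1i3), the pregnane X receptor PXR (gene Nr1i2) and 6 genes counted among their targets, namely Cyp2b9, Cyp2b10, Cyp2b13, Cyp2c55, Por and Alas1, were followed through 16 mouse liver libraries. These 8 genes of the 55421 gene IDs in the count table were chosen by gene name, as xenobiotic receptors and typical targets, by someone who already knew results of the same libraries. Their values therefore describe these libraries, and the adjusted p-values beside them, taken from a fit across all genes, are not independent evidence. All 8 passed the filter of at least 10 counts in total.

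Bulk RNA-seq of poly-A RNA was performed on livers of male C57BL/6 mice injected at 6 months of age with an AAV8 vector carrying the hepatocyte promoter Tbg. In HIRA KO, AAV8-Tbg-Cre was given to HIRAfl/fl mice, or AAV8-Tbg-saCas9-sgRNA-HIRA to wildtype mice. Controls were wildtype mice given AAV8-Tbg-Cre, or AAV8-Tbg-saCas9-sgRNA-Rosa26, so that Cre or saCas9 was present in every group. Per the labels, each of the 4 groups (both genotypes, sampled before or after regeneration) held 4 libraries, 2 of each of the 2 deletion approaches. Tissue before regeneration was what partial hepatectomy removed 4 weeks after injection, and tissue after regeneration was the liver that remained, taken 5 days later, so the lobe sampled changed together with time and the effects of lobe and time cannot be told apart. The columns of the tables give genotype, time and a running number from 1 to 4, but neither the deletion approach nor the mouse.

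CAR and PXR are nuclear receptors that sense drugs, bile acids and other small molecules. Each pairs with RXRα at response elements built from AGGTCA-like half-sites and raises transcription of cytochrome P450 genes, conjugating enzymes and transporters. CAR is held in the cytoplasm of the resting hepatocyte and can also be activated without a ligand, through loss of epidermal growth factor receptor signaling. Cyp2b10 is the classical CAR target of mouse liver, Cyp2c55 responds to CAR and PXR, and Cyp2b9 and Cyp2b13 are known as P450 genes with higher expression in female than in male mice. Por encodes the reductase that supplies electrons to microsomal P450 enzymes, and Alas1 encodes the first and rate-limiting enzyme of heme synthesis in liver.

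The genes lie on 6 chromosomes (GRCm38, GENCODE M21 annotation, full extent with exons and introns). Nr1i3 is at chr1:171213970-171220701 on the plus strand and overlaps Tomm40l, which runs on the minus strand at chr1:171216011-171222514. Nr1i2 is at chr16:38248323-38294824 and Alas1 at chr9:106233455-106248654, both on the minus strand. Por is at chr5:135670033-135735326 and Cyp2c55 at chr19:39007019-39042693, on the plus strand. The Cyp2b genes lie side by side on the plus strand, with Cyp2b10 at chr7:25897620-25926624, Cyp2b13 at chr7:26061497-26096197 and Cyp2b9 at chr7:26173411-26210661.

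The 250 bases upstream of the RefSeq start (GRCm38.p6, plus strand) of the 3 Cyp2b genes are shown because these genes are neighbors whose levels differed in unlike ways between libraries. The windows are chr7:25897408-25897657 for Cyp2b10, chr7:26173159-26173408 for Cyp2b9 and chr7:26061245-26061494 for Cyp2b13, and that of Cyp2b10 runs into the first exon of the GENCODE model. Capitals mark the letters ATAAAA in Cyp2b10 and, in Cyp2b9 and Cyp2b13, the bases in which these genes differ from each other.
Cyp2b10: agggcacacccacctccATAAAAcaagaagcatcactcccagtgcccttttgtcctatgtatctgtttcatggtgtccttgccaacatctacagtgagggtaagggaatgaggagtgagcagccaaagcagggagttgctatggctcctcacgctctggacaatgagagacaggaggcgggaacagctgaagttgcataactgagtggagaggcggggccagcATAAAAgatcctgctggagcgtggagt
Cyp2b9: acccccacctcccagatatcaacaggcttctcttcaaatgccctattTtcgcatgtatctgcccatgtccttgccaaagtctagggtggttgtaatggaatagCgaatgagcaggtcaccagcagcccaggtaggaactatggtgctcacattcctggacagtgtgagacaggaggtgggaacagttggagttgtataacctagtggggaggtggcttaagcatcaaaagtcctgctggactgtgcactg
Cyp2b13: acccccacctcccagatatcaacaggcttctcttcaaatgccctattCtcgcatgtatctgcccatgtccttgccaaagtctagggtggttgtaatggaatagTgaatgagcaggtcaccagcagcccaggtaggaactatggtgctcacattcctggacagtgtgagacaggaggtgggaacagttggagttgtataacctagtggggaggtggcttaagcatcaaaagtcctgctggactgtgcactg

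Cyp2b9 and Cyp2b13 shared 248 of the 250 bases, 99.2%. The substitutions were T48C and C104T, with the base of Cyp2b9 first and positions counted from 1 at the 5′ end of the window. Cyp2b9 and Cyp2b10 shared 187 bases over 262 columns of a global alignment, 71.4%. The letters ATAAAA, searched on both strands after the windows had been read and overlapping the TATA box letters TATAAA, began 27 and 233 bases upstream of the start in Cyp2b10 and were not in the window of Cyp2b9 or Cyp2b13. They are in 17% of the 32851 mouse promoter windows of the same length. The half-site letters AGGTCA, on either strand, began 138 bases upstream in Cyp2b9 and Cyp2b13, were not in the Cyp2b10 window, and are in 14% of all windows. Sequence further upstream than 250 bases was not searched, so absence from a window does not show that a gene lacks a receptor site. All 8 genes had an entry in the promoter table.

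Levels are given as CPM, that is counts scaled to a common library size with TMM (the normalization of edgeR), over library totals from 15103059 to 21738619 counts. A gene was called in a comparison at an adjusted p under 0.05 by the quasi-likelihood test of edgeR, adjusted after Benjamini-Hochberg over 23018 genes, and log2 fold changes are given ± SE. Hira itself read 4.99 to 6.29 CPM in the 8 control libraries and 3.04 to 4.56 CPM in the 8 HIRA KO libraries. On the second principal component, which held 26.5% of the variance, HIRA KO libraries 1 and 2 lay at -47.4 and -36.6 before and at -40.2 and -36.2 after regeneration, and every other library at -1.14 or above. Control library 4 stood apart for Cyp2b9 and sex-biased genes, as given with these genes.

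No member was called by edgeR in any of the 5 comparisons. Among all genes, the share called was 0.0391% for HIRA KO against control before regeneration, 0.491% after regeneration, 10.2% for after against before regeneration in control, 12.0% for the same in HIRA KO and 0% for the interaction. At an unadjusted p under 0.05 (edgeR), 3 of the 8 genes passed for HIRA KO before regeneration, 3 after it and 0 in each of the other 3 comparisons. Of all 23018 genes, 3031 and 3629 passed this threshold for HIRA KO before and after regeneration. For regeneration in control, regeneration in HIRA KO and the interaction, 5415, 6318 and 1568 did. DESeq2 called 1 member (Cyp2b10) for HIRA KO before regeneration and 2 (Cyp2b10 and Por) after it, against 2.37% and 5.93% of all genes, and 0 in the other comparisons.

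**Figure D1:**
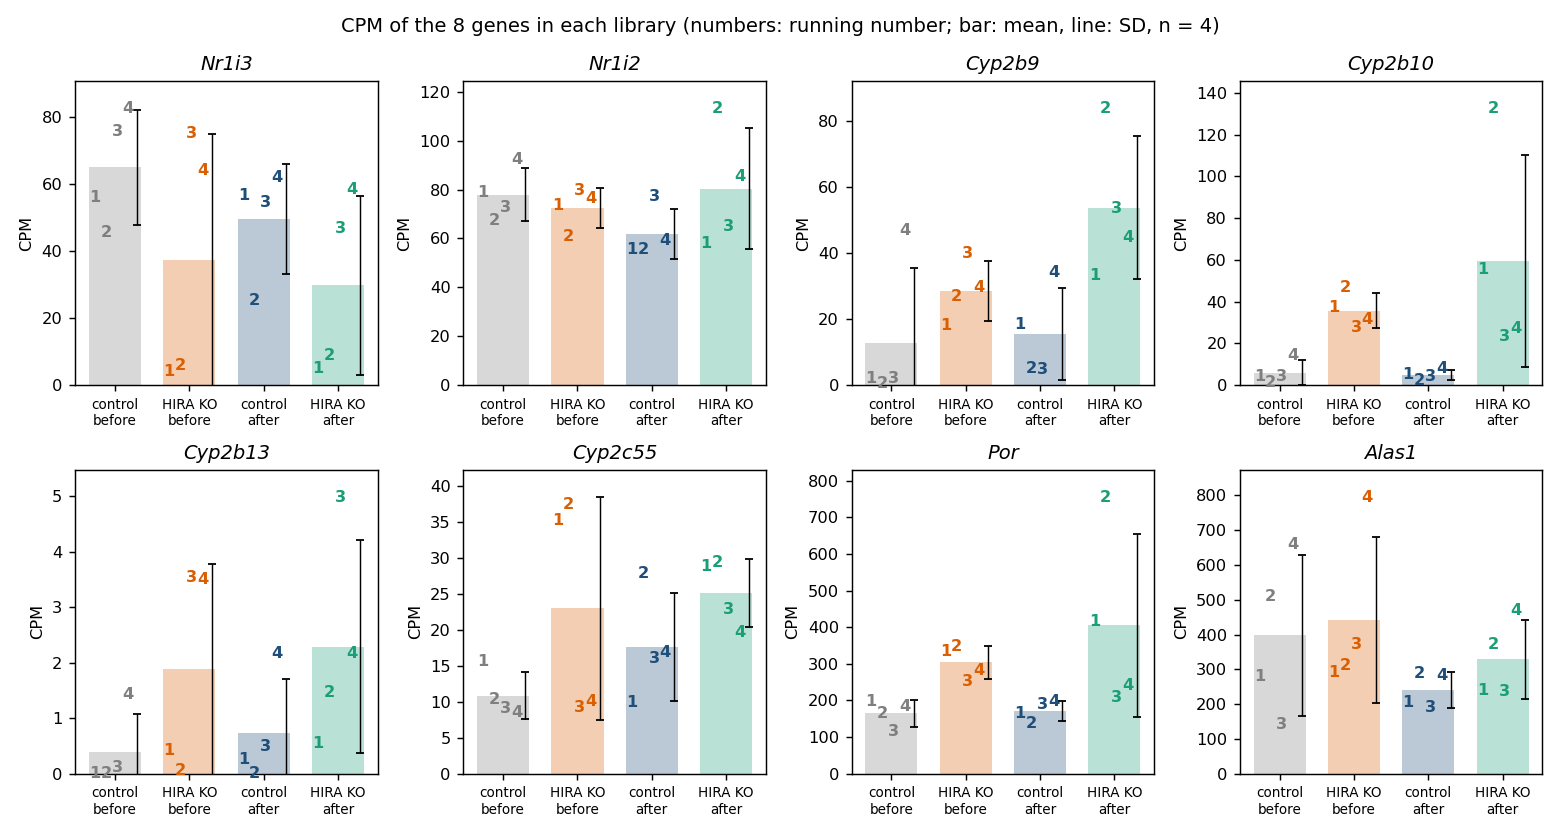
CPM of the 8 genes (vertical axes from 0, a scale for each gene) in the 4 groups. Digits are single libraries by running number, bars are means and lines are SD over 4 libraries. Nr1i3 sits below 9 CPM in HIRA KO libraries 1 and 2 at both times, while Cyp2b10 and Por are higher in every HIRA KO library than in every control library of the same time.

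Of the receptors, CAR RNA was low in part of the HIRA KO libraries, and PXR RNA overlapped between HIRA KO and control at both times. Before regeneration, Nr1i3 read 56.0, 45.6, 75.7 and 82.4 CPM in control libraries 1 to 4 and 4.13, 5.74, 75.1 and 64.0 CPM in HIRA KO libraries 1 to 4. After regeneration it read 56.6, 25.3, 54.3 and 62.0 CPM in control and 4.89, 8.88, 46.6 and 58.4 CPM in HIRA KO. The HIRA KO libraries numbered 1 and 2 were thus the lowest of all at both times, and those numbered 3 and 4 lay within the range of the controls. The group means before regeneration were 64.9 ± 17.1 in control and 37.2 ± 37.6 in HIRA KO (SD, n = 4), and the log2 fold change was -0.80 ± 0.91 (edgeR, adjusted p = 0.756). It was -0.74 ± 0.91 after regeneration (edgeR, adjusted p = 0.749), and without the 4 HIRA KO libraries numbered 1 and 2 the values became 0.10 before and 0.10 after it. In bulk tissue, fewer cells that express a gene and less RNA per cell cannot be told apart.

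Tomm40l, which shares its locus with Nr1i3 on the other strand, ranged from 6.08 to 12.2 CPM over the 16 libraries and read 7.94, 7.94, 8.11 and 9.33 CPM in the 4 libraries with low Nr1i3. By the deposited FPKM it was higher in exactly these libraries, at 12.5, 12.2, 12.9 and 12.7 against 5.44 to 7.65 in the other 12, while Nr1i3 was low in them on both scales. How reads of the shared locus were divided between these genes was not tested. Apoa2, the gene that follows and encodes an apolipoprotein, read 1596 and 1770 CPM in HIRA KO libraries 1 and 2 before regeneration, where the other 6 libraries read 3352 to 5361 CPM. After regeneration the same 2 libraries read 982 and 1296 CPM, below the 1610 to 2558 CPM of the others.

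Markers of some other cells, though not of all, were also unlike in these libraries. The summed CPM of 10 stellate cell and matrix markers, all detected, was 693 and 505 in HIRA KO libraries 1 and 2 before regeneration and 235 to 278 in the other 6. After regeneration it was 508 and 395 in these libraries and 185 to 430 in the others. Before regeneration, the sum of 8 cholangiocyte markers was 143 and 97.6 CPM in HIRA KO libraries 1 and 2 and 47.9 to 73.8 CPM in the other 6. After regeneration it was 132 and 107 CPM against 71.7 to 115 CPM, which overlap. Of 10 hepatocyte markers, 6 had a negative log2 fold change for HIRA KO before regeneration and 4 a positive one. Their sum at that time was 166582 and 149347 CPM in HIRA KO libraries 1 and 2 and 110540 to 137289 CPM in the others. After regeneration it was 135698 and 145659 CPM in these libraries, within the 114424 to 166111 CPM of the others. The sum of 6 B cell markers was 113 and 59.1 CPM in them before regeneration against 10.3 to 42.7 CPM in the others, and 103 and 36.0 CPM against 10.9 to 21.6 CPM after it. Before regeneration, Kupffer cell markers summed to 187 and 189 CPM in HIRA KO libraries 1 and 2, within the 130 to 367 CPM of the others. Endothelial markers, at 254 and 304 against 277 to 357 CPM, overlapped too. T and NK cell markers (7.67 and 6.87 against 2.25 to 5.70 CPM) and mitotic genes (25.5 and 18.7 against 4.91 to 12.6 CPM) did not. After regeneration these sums overlapped. The part of other cell types in the low Nr1i3 values was not tested.

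For Nr1i2 (PXR), the libraries read 78.9, 67.2, 72.8 and 92.5 CPM in control and 73.6, 60.6, 79.5 and 76.4 CPM in HIRA KO before regeneration. They read 55.4, 55.4, 77.1 and 59.2 CPM in control and 58.0, 113, 65.1 and 85.5 CPM in HIRA KO after it. The groups overlapped at both times, and HIRA KO library 2 was the lowest of its group before regeneration and the highest of its group after it. The log2 fold change was -0.10 ± 0.18 before regeneration (edgeR, adjusted p = 0.854), with 2 SE on either side reaching from -0.46 to 0.26. After regeneration it was 0.38 ± 0.18 (edgeR, unadjusted p = 0.0481, adjusted p = 0.312), with 2 SE reaching from 0.02 to 0.74.

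Cyp2b10, the classical CAR target, had the largest log2 fold change of the 8 genes at both times with all libraries. Before regeneration Cyp2b13 was above it without control library 4 (5.45 against 3.47) and without the HIRA KO libraries numbered 1 and 2 (3.25 against 2.32). Before regeneration it read 4.18, 1.18, 4.24 and 14.4 CPM in control and 37.0, 46.7, 27.5 and 31.6 CPM in HIRA KO. After regeneration it read 5.2, 2.12, 4.25 and 7.73 CPM in control and 55.2, 132, 23.1 and 27.1 CPM in HIRA KO. Every HIRA KO library was above every control library at both times, and within HIRA KO the highest values were in libraries 1 and 2, those with the least Nr1i3. The log2 fold change was 2.58 ± 0.71 before regeneration, 5.99-fold (edgeR, adjusted p = 0.185; DESeq2, 2.60 and 0.0142), and 3.61 ± 0.73 after it, 12.3-fold (edgeR, adjusted p = 0.0523; DESeq2, 3.64 and 5.71e-05). Without the 4 HIRA KO libraries numbered 1 and 2, the values were 2.32 and 2.38 (edgeR, adjusted p = 0.560 and 0.289). Leaving out HIRA KO library 3 or 4 after regeneration brought the second comparison under the threshold (edgeR, adjusted p = 0.0342 and 0.0302), and over all alternatives its adjusted p ran from 5.71e-05 to 0.289.

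Cyp2b9 was higher in the mean of HIRA KO at both times, but control library 4 was as high as the HIRA KO libraries. Before regeneration the control libraries read 1.99, 0.484, 2.0 and 46.9 CPM and the HIRA KO libraries 18.0, 26.8, 40.0 and 29.6 CPM. After regeneration they read 18.2, 5.16, 4.63 and 34.3 CPM and 33.2, 83.9, 53.6 and 44.9 CPM. The log2 fold changes were 1.16 ± 1.07 and 1.79 ± 1.07 (edgeR, adjusted p = 0.687 and 0.453). With control library 4 before regeneration left out, the first value rose to 4.24, and after against before regeneration in control, 0.29 with all libraries, became 3.37 (edgeR, adjusted p = 0.0277).

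Cyp2b13 had the lowest level per length of the 8 genes. Its libraries read 0, 0, 0.114 and 1.42 CPM in control and 0.423, 0.067, 3.54 and 3.51 CPM in HIRA KO before regeneration, and 0.251, 0, 0.491 and 2.16 CPM in control and 0.544, 1.47, 4.98 and 2.17 CPM in HIRA KO after it. These values rest on 26, 117, 58 and 189 counts summed over the 4 libraries of each group. In contrast to Cyp2b10, the high HIRA KO values before regeneration were in libraries 3 and 4. The log2 fold changes of 2.32 ± 1.39 and 1.60 ± 1.27 did not pass (edgeR, adjusted p = 0.504 and 0.587). With control library 4 left out they were 5.45 and 3.21, and the lowest values with 1 library left out were 1.82 (without HIRA KO library 4) and 0.88 (without HIRA KO library 3).

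Reads of the Cyp2b genes can in part be assigned to more than 1 of them. Of all stretches of 75 bases in the Cyp2b13 transcript, 5.16% were also in Cyp2b9 and 2.05% in Cyp2b10, while Cyp2b9 and Cyp2b10 shared none. At 50 bases, 10.8% of the Cyp2b13 stretches were in Cyp2b9 and 8% in Cyp2b10. The low Cyp2b13 values are uncertain for this reason. Cyp2b19 and Cyp2b23 were under the filter, with at most 0.172 and 0.0444 CPM in any library, and were not tested.

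The make-up of the Cyp2b reads differed between libraries of the same group. Before regeneration, 56.4% ± 22.3 of Cyp2b counts came from Cyp2b10 in control libraries and 54.4% ± 13.1 in HIRA KO libraries (SD, n = 4). After regeneration, the shares were 28.3% ± 12.2 and 46.9% ± 17.1 (SD, n = 4). The shares in HIRA KO libraries 1 and 2 were 60.8% to 66.6% over both times, above the 28.3% to 48.8% of HIRA KO libraries 3 and 4. Control library 4 had 23% before and 17.5% after regeneration (95% Wilson intervals of 20.5% to 25.6% and 15.2% to 20.1%, which cover counting error only). The summed Cyp2b level was 55.5 to 73.6 CPM in HIRA KO before regeneration against 1.72 to 6.35 CPM in control libraries 1 to 3 and 62.7 CPM in control library 4.

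**Figure D2:**
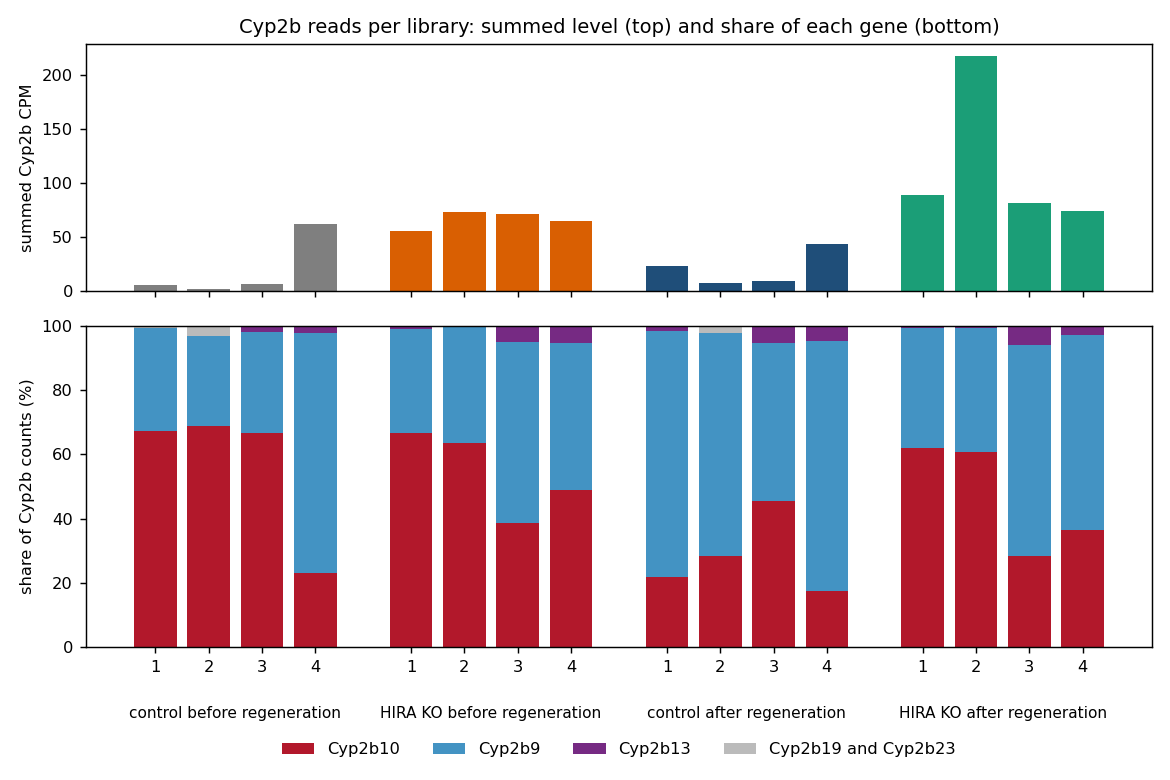
Summed CPM of the 5 Cyp2b genes (top) and the percent of Cyp2b counts from each gene (bottom) in the 16 libraries, ordered by group and running number. Control library 4 is high at both times and mostly Cyp2b9, while HIRA KO libraries 1 and 2 are mostly Cyp2b10.

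Cyp2c55 was high in the libraries in which Nr1i3 was low. Before regeneration it read 15.6, 10.3, 9.04 and 8.52 CPM in control and 35.2, 37.5, 9.25 and 10.0 CPM in HIRA KO. After regeneration it read 9.9, 27.8, 16.0 and 16.8 CPM in control and 28.8, 29.3, 22.8 and 19.6 CPM in HIRA KO. HIRA KO libraries 3 and 4 before regeneration were at the level of the controls, and after regeneration the groups overlapped through control library 2, the control with the least Nr1i3. The log2 fold changes were 1.08 ± 0.45 before and 0.51 ± 0.44 after regeneration (edgeR, adjusted p = 0.339 and 0.629), and without the 4 HIRA KO libraries numbered 1 and 2 the first became -0.17. The neighboring P450 gene Cyp2c65, named after its values were seen, read 12.3 and 8.07 CPM in HIRA KO libraries 1 and 2 before regeneration and 10.4 and 9.46 CPM after it, and no more than 0.806 CPM elsewhere. The transcripts of Cyp2c55 and Cyp2c65 shared no stretch of 50 bases.

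Within HIRA KO, the libraries had the same order for Por, the P450 reductase gene, as for Cyp2b10 at each time. Before regeneration it read 198, 164, 115 and 182 CPM in control and 333, 349, 252 and 282 CPM in HIRA KO. After regeneration it read 164, 136, 189 and 197 CPM in control and 415, 754, 209 and 241 CPM in HIRA KO. The groups did not overlap at either time, and HIRA KO libraries 1 and 2 were again the highest. The log2 fold change was 0.88 ± 0.32 before regeneration, 1.84-fold (edgeR, adjusted p = 0.275; DESeq2, 0.90 and 0.101), and 1.24 ± 0.32 after it, 2.36-fold (edgeR, adjusted p = 0.0867; DESeq2, 1.26 and 0.00431). Without the 4 HIRA KO libraries numbered 1 and 2, the values were 0.70 and 0.41 (edgeR, adjusted p = 0.389 and 0.434). Leaving out HIRA KO library 3 or 4 after regeneration gave adjusted p-values of 0.0302 and 0.0368 in edgeR, and over all alternatives they ran from 0.00431 to 0.434.

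Cyp2b10 and Por were the 2 members whose HIRA KO libraries all lay above the controls at each time. Among all 23018 genes, 3.54% did so before regeneration, 3.65% after it and 0.504% at both times. The 2 times are not independent repeats, because tissue of both came from the same operated mice. The other 6 members overlapped at both times. For after against before regeneration, none of the 8 genes had groups that did not overlap, in control or in HIRA KO, where 19.0% and 16.1% of all genes did in either direction.

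Alas1, for heme synthesis, varied between libraries of the same group. It read 280.1, 509.8, 142 and 659 CPM in control and 291, 311, 372 and 794 CPM in HIRA KO before regeneration. It read 203, 287, 189 and 282 CPM in control and 238, 372, 236 and 471 CPM in HIRA KO after it. Library 4 was the highest in 3 of the 4 groups, and control library 3 was the lowest of its group at both times. The log2 fold changes for HIRA KO were 0.15 ± 0.43 and 0.45 ± 0.44 (edgeR, adjusted p = 0.919 and 0.668), and -0.73 ± 0.44 for regeneration in control and -0.43 ± 0.44 in HIRA KO (edgeR, adjusted p = 0.354 and 0.583).

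**Figure D3:**
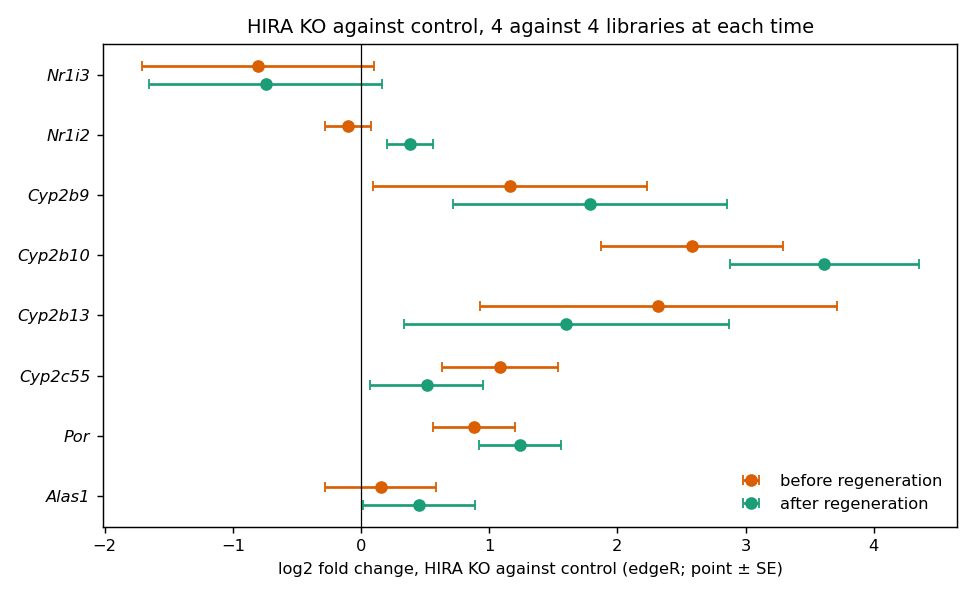
Log2 fold change of HIRA KO against control (horizontal axis, edgeR, points with SE, 4 against 4 libraries) for the 8 genes before and after regeneration. With all libraries Cyp2b10 has the largest values, 2.58 and 3.61, and Nr1i3 is the lowest at both times with errors that reach across 0.

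No member was called between the times. In control, the log2 fold changes ran from -0.73 (Alas1) to 1.00 (Cyp2b13), and in HIRA KO from -0.43 (Alas1) to 0.92 (Cyp2b9), with a smallest adjusted p of 0.280 and 0.438 in edgeR. The difference of the HIRA KO effects between the times was positive for 6 of the 8 genes, and the smallest adjusted p was 0.756 (edgeR). The HIRA KO comparisons and the regeneration comparisons share libraries.

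Between genes, levels were compared per length. By the deposited FPKM, averaged over the 4 group means, the order was Alas1 (291), Por (95.4), Nr1i3 (37.8), Nr1i2 (22.1), Cyp2b9 (12.5), Cyp2b10 (12.2), Cyp2c55 (8.1) and Cyp2b13 (0.94). When CPM were divided by kilobases of exon, 2 of the 8 genes kept their rank. Por (65.0) then stood above Alas1 (57.1), and Nr1i3 (10.3) moved from rank 3 to rank 6, below Nr1i2 (28.7), Cyp2b9 (14.8) and Cyp2b10 (12.5). The close averages of Cyp2b9 and Cyp2b10 hid differences in both directions. In control after regeneration, Cyp2b9 was above Cyp2b10 in every library on both scales (2.12 to 16.2 against 1.03 to 3.70 FPKM). In HIRA KO libraries 1 and 2, Cyp2b10 was above Cyp2b9 on both scales at both times. In control before regeneration, Nr1i3 stood at 52.3 ± 10.7 FPKM and Cyp2b10 at 2.52 ± 2.44 FPKM. In HIRA KO after regeneration they stood at 25.5 ± 23.1 and 27.9 ± 23.6 FPKM, but at 6.72 ± 6.07 and 28.1 ± 24.0 CPM per kilobase of exon (SD, n = 4).

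**Figure D4:**
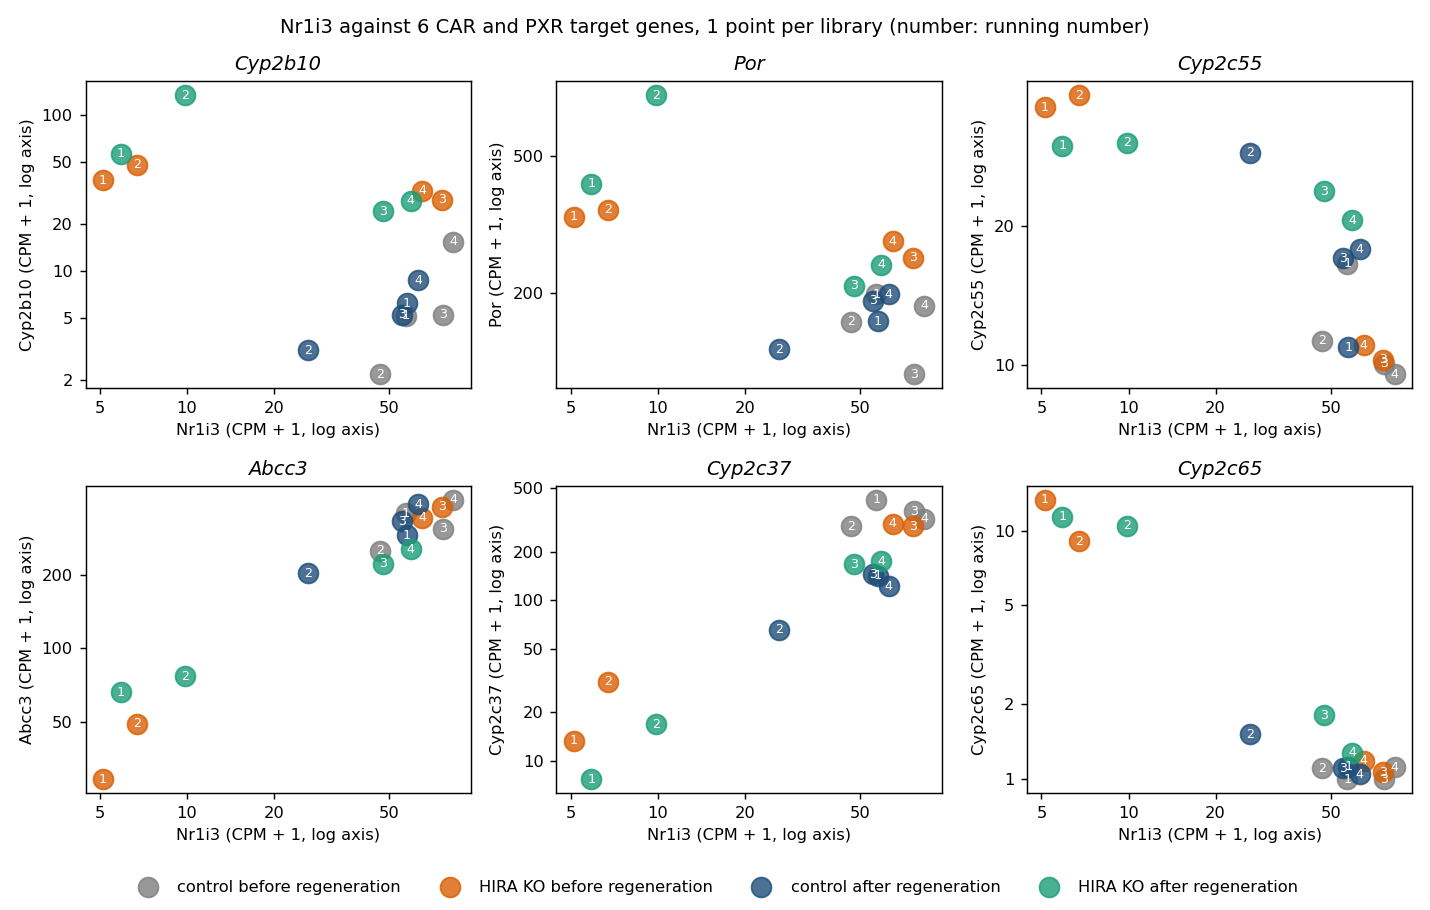
Nr1i3 (horizontal) against 6 receptor target genes (vertical), as CPM + 1 on log axes, 1 point per library with its running number. HIRA KO libraries 1 and 2 form a cluster at the left of every panel, high for Cyp2b10, Por, Cyp2c55 and Cyp2c65 and low for Abcc3 and Cyp2c37.

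The targets of the receptors thus did not move as 1 group in the libraries with low Nr1i3. Abcc3, a bile acid and conjugate exporter, read 28.2 and 48.3 CPM in HIRA KO libraries 1 and 2 before regeneration and 65.3 and 76 CPM after it, where the other 12 libraries read 202 to 404 CPM. Cyp2c37, named after its values were seen through its likeness to Nr1i3, read 12.3, 30, 6.66 and 15.9 CPM in the same 4 libraries and 64.7 to 421 CPM in the others. Cyp3a11, the classical PXR target, was higher in every HIRA KO library than in every control library at both times, at 5454 to 8721 against 3161 to 4008 CPM before and 5219 to 8043 against 3088 to 5179 CPM after regeneration. Its log2 fold changes were 1.00 ± 0.20 and 0.78 ± 0.20 (edgeR, adjusted p = 0.0838 and 0.0806). Because the libraries fell into clusters, no correlation over all of them is given as a relation between receptor and target.

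As a description of likeness, Pearson's r of log2(CPM + 1) with Nr1i3 over the 16 libraries was highest for Nlrp12 (0.982), Abcc3 (0.976), Cyb5a (0.959), Msra (0.957) and Cisd3 (0.953). After group means were subtracted, Nlrp12 (0.981), Abcc3 (0.972), Cyp2c37 (0.972) and Rbpms2 (0.969) were among the 5 highest. All of these points share the 4 libraries that stood apart. For Cyp2b10 the genes most alike were H3f3a (0.944), which encodes histone H3.3, then Atp8b5 (0.923), Gal3st1 (0.911), Fam117a (0.902) and Krt23 (0.9). H3f3a read 53.5 to 62.9 CPM in the control libraries and 78.4 to 129.9 CPM in the HIRA KO libraries, both times together. After group means were subtracted, the first for Cyp2b10 was Aup1 (0.895).

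For Cyp2b9 the highest r was with Mpdu1, at 0.901 over all libraries and 0.888 within groups. Cyp2b13 was most like Slc22a27 (0.9) and Slc22a29 (0.897) over all libraries, both genes of organic anion transporters, and most like Esrrg (0.962) within groups. Cyp2c55 was most like Mical1 (0.94) over all libraries and Lamc1 (0.922), a basement membrane laminin chain, within groups. Hgf, the hepatocyte growth factor gene, was also among the 5 most like Cyp2c55 over all libraries (0.908).

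Of the 13 partners and co-regulators of the receptors, 1 was called for HIRA KO against control. This was the co-repressor gene Ncor1, which fell by 0.47 ± 0.10 after regeneration (edgeR, adjusted p = 0.0413) and read 86.4 to 108 CPM in control and 59.5 to 72.6 CPM in HIRA KO. This call was lost when only the groups compared were fitted (edgeR, adjusted p = 0.206) and in 6 of the 8 fits without 1 library, each without a control library or HIRA KO library 1 or 2, and over all alternatives the adjusted p ran from 0.000208 to 0.321. The median log2 fold change of the list was -0.06 before and -0.20 after regeneration, beside 0.01 and 0.02 for all genes. Rxra, the common partner of CAR and PXR, had -0.34 ± 0.16 and -0.22 ± 0.16 (edgeR, adjusted p = 0.371 and 0.549). Before regeneration it read 298 and 296 CPM in HIRA KO libraries 1 and 2 and 426 to 552 CPM in the other 6. Hnf4a, a hepatocyte factor that acts with both receptors, had -0.17 ± 0.19 and -0.16 ± 0.19 (edgeR, adjusted p = 0.761 and 0.749). With regeneration in HIRA KO, the coactivator gene Ncoa3 fell by 0.47 ± 0.12 (edgeR, adjusted p = 0.0189) and no other member of the list was called. Of the 6 genes of the cytoplasmic CAR complex and its EGF receptor signal, none was called in any comparison by edgeR, with medians between -0.06 and -0.01.

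Of 12 other P450 targets, none was called for HIRA KO, and their medians were 0.07 before and -0.06 after regeneration. Their summed level, Cyp3a11 included, was 8643 to 11232 CPM in HIRA KO and 7202 to 8190 CPM in control before regeneration, and after it the groups overlapped, at 8016 to 9862 and 5777 to 8196 CPM. With regeneration, Cyp3a41a and Cyp3a44 of this list rose in control, by 7.96 ± 1.29 and 5.43 ± 1.08 (edgeR, adjusted p = 0.00211 and 0.00684), and in HIRA KO, by 5.32 ± 1.11 and 3.81 ± 0.98 (edgeR, adjusted p = 0.00827 and 0.0244). Both are close relatives and are expressed mostly in female mice. The 14 female-biased genes, which include both, summed to at most 35.7 CPM in any control library before regeneration, so these folds start from a low level. Over all alternatives the adjusted p of Cyp3a44 in control ran from 1.33e-07 to 0.273. In HIRA KO, Cyp3a44 was called in 4 of the 8 fits without 1 library (edgeR). Cyp2c29, a CAR target, had -0.51 ± 0.52 and 0.02 ± 0.52 for HIRA KO (edgeR, adjusted p = 0.725 and 0.992). After regeneration it read 229.8 and 284 CPM in HIRA KO libraries 1 and 2, 1004 and 1205 CPM in HIRA KO libraries 3 and 4, and 499.98 to 866 CPM in control.

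Of 22 conjugation and transport targets, 1 was called for HIRA KO. Abcc2, a canalicular exporter, fell by 0.80 ± 0.16 after regeneration (edgeR, adjusted p = 0.0392), with 711 to 953 CPM in control and 353 to 599 CPM in HIRA KO. Like that of Ncor1, this call was lost when only the groups compared were fitted (edgeR, adjusted p = 0.197) and in 6 of the 8 fits without 1 library, with a range from 0.000208 to 0.197 over all alternatives. With regeneration in control, 7 of the 22 rose and 1 fell, and the median was 0.89. Gsta1 rose by 4.92 ± 0.88, Gstm3 by 4.25 ± 0.82 and Akr1b7 by 4.11 ± 1.13, and Ces2a fell by 1.04 ± 0.21 (edgeR, adjusted p = 0.00416, 0.00579, 0.0333 and 0.00432). Of these calls, that of Akr1b7 held in 2 of the 8 fits without 1 library and the others in all 8. In HIRA KO, 4 rose and 2 fell, with a median of 0.18, and the 3 with the largest rise were Sult1e1, Gstm3 and Gstm2. The Sult1e1 call held in 3 of the 8 fits without 1 library. The summed level of the 22 genes after regeneration was 3377 and 4248 CPM in HIRA KO libraries 1 and 2, 12956 and 15268 CPM in HIRA KO libraries 3 and 4 and 9457 to 20269 CPM in control. The interaction called none of them in edgeR. Without the 4 HIRA KO libraries numbered 1 and 2, Sult1e1, Ces2a and Ugt1a1 of this list, Cyp3a41a and Cyp3a44 of the P450 list and Cyp2a4 of the female-biased list no longer passed for regeneration in HIRA KO (edgeR, adjusted p from 0.0614 to 0.369).

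The genes of heme turnover beside Alas1 had no call for HIRA KO. Before regeneration 10 of the 11 had a negative log2 fold change with a median of -0.20, and after regeneration 4 of the 11 did, with a median of 0.02. Their sum before regeneration was 595 and 644 CPM in HIRA KO libraries 1 and 2 and 765 to 863 CPM in the other 6. Hmox1, the heme oxygenase gene, rose with regeneration by 1.1 ± 0.21 in control and 1.43 ± 0.21 in HIRA KO (edgeR, adjusted p = 0.00369 and 0.000698). Kupffer cell markers moved with it, with 8 of 8 called higher in both genotypes and medians of 1.16 and 1.61, and so did 10 of 10 mitotic genes, with medians of 4.86 and 3.23. Their part in the Hmox1 result was not tested. In HIRA KO, Blvra, the biliverdin reductase gene, also rose by 0.75 ± 0.13, and Fech, which inserts iron into heme, fell by 0.43 ± 0.14 (edgeR, adjusted p = 0.00169 and 0.0471). Of the 6 other electron partners of P450 enzymes, all had a negative log2 fold change for HIRA KO before regeneration and none was called, while Por had a positive value. The sum of these 6 was 2237 and 2497 CPM in HIRA KO libraries 1 and 2 and 3214 to 3876 CPM in the other 6 at that time. Cyb5b, a cytochrome b5 gene, fell by 0.65 ± 0.15 with regeneration in HIRA KO (edgeR, adjusted p = 0.00892).

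The female-biased genes bear on Cyp2b9 and Cyp2b13. Of 14 such genes, none was called for HIRA KO against control, where the median log2 fold change was 1.27 before and -0.15 after regeneration. With regeneration, 5 of the 14 rose in control and 4 in HIRA KO, and none fell. These calls include Cyp3a41a and Cyp3a44 in both genotypes, which are also counted among the P450 targets. Sult2a1 is shared with the list of conjugation targets. Cyp2a4, a female-biased steroid hydroxylase gene, rose by 6.28 ± 1.46 in control and by 5.27 ± 1.40 in HIRA KO (edgeR, adjusted p = 0.0169 and 0.0292). Without 1 library, Cyp2a4 was called in 6 of 8 fits in control and 2 of 8 in HIRA KO. In control the Cyp2a4 call was also lost when only the groups compared were fitted (edgeR, adjusted p = 0.0774). By the deposited FPKM, its group means went from 9.56 to 131 in control and from 8.25 to 106 in HIRA KO, a smaller rise than the 77.6-fold and 38.6-fold of the counts. The sum of the 14 genes was 35.7 CPM in control library 4 before regeneration and 10.7 to 27.8 CPM in the other controls, and 722 CPM against 25.9 to 154 CPM after it. Cyp2a4 alone made up 606 of the 722 CPM and 88.3 of the 154 CPM. Before regeneration, it was 39.2 to 69.3 CPM in the HIRA KO libraries, above all 4 controls, and after regeneration, at 101 to 299 CPM, the groups overlapped.

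The male-biased genes were low in the same library. The sum of 14 male-biased genes was 3512 CPM in control library 4 before regeneration and 6288 to 8649 CPM in the other controls, and 1356 CPM against 2586 to 4904 CPM after it. It was 3804 to 5435 CPM in the HIRA KO libraries before regeneration, below control libraries 1 to 3. With regeneration in control, 2 of these genes fell, Cyp2u1 by 1.42 ± 0.41 and Cyp2d9 by 1.21 ± 0.23 (edgeR, adjusted p = 0.0419 and 0.00322). Cyp2u1 was called in 2 of the 8 fits without 1 library and Cyp2d9 in all 8. The Y-linked gene Ddx3y read 34.1 to 64.3 CPM and Xist at most 0.317 CPM in all 16 libraries. The part of these genes in the high Cyp2b9 of control library 4 was not tested.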

How the data were processed

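Poly-A RNA of 16 mouse liver libraries, 4 per group, was sequenced. Per the methods of the study, reads were aligned to mm10 with STAR and counted per gene with HOMER, while the submitters' processing notes name STAR, HTSeq and Cufflinks, and whether counting used strand is not given in the sources used here. The authors deposited raw counts per gene and FPKM values, whose empty cells were read as 0. Groups came from the labels, and 0 columns of per-sample values were left unused. Genes with at least 10 counts in total (23018) were tested with edgeR 4.0.16 (R 4.3.3): TMM scaling, robust quasi-likelihood fit of 4 group means on all 16 libraries, Benjamini-Hochberg adjustment. The 5 comparisons were HIRA KO against control at each time, after against before regeneration in each genotype, and their interaction. DESeq2 1.42.0 and limma 3.58.1 served as alternatives. The edgeR test was checked on simulated counts with the same spread for all genes and changes shared by all HIRA KO libraries. That check does not cover groups that are split, as HIRA KO was here. Totals ran from 15103059 to 21738619 counts per library, and the SE reflect the spread between libraries of a group as well as the counts.

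Named were all 8 members, called genes of the pathway lists (at most 3 in each direction by fold change), 7 genes fixed by name (Rxra, Hnf4a, Cyp3a11, Cyp2c29, Cyp2a4, Hmox1, Abcc3), and the 5 genes most like Nr1i3 and 4 of the P450 members by Pearson's r among genes with a mean CPM of at least 1. Members and lists were chosen with earlier results of these data known. Columns carry no mouse or deletion approach, so neither entered a fit. The edgeR p-values set a group difference against a spread between libraries that is estimated for each gene over all 4 groups. Split HIRA KO libraries therefore also widen the SE of comparisons within control. Some genes that these rules select are not reported here. Promoter sequences came from RefSeq (GRCm38.p6).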

Additional observations from a re-analysis of the deposited data

Results flagged for a closer look

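In 3 of 32 groups of 4 libraries (8 genes in 4 groups), 1 library lay far from the others by Dixon's criterion. Chance alone gives about 1 in 20 such groups. Cyp2b9 read 46.9 CPM in control library 4 before regeneration, where the other controls read at most 2 CPM. Cyp2b13 read 1.42 CPM in the same library, where the others read at most 0.114 CPM. Alas1 read 794 CPM in HIRA KO library 4 before regeneration, where the others read 291 to 372 CPM.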

How the results depend on the processing

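Of 776 log2 fold changes of single genes under alternative settings, 384 left out 1 library (346 kept direction and side of the threshold, 33 reversed and 5 passed it) and 392 came from other settings (366, 20 and 6). The count of members called, 0 by edgeR in each comparison, became 1 with DESeq2 for HIRA KO before regeneration. After regeneration it became 2 with DESeq2, 1 with filterByExpr, 1 with limma on log2(FPKM + 1) and 1 with limma on log2(FPKM + 0.1). With 1 library left out it ran from 0 to 2 for HIRA KO after regeneration (2 without HIRA KO library 3 or 4) and from 0 to 1 for regeneration in control (1 without control library 4 before regeneration). By counts per kilobase of exon, 2 of the 8 genes kept their rank.

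Directions that reversed are given as log2 values, and the cause was not tested. With limma on log2(FPKM + 1), regeneration gave 0.048 for Cyp2b10 in control and 0.10 for Nr1i3 in HIRA KO, and the interaction -0.10 for Por, 0.21 for Cyp2b13 and -0.17 for Cyp2b9. With log2(FPKM + 0.1) these were 0.16 for Cyp2b10, 0.15 for Nr1i3, -0.10 for Por and -0.78 for Cyp2b9. Without the 4 HIRA KO libraries numbered 1 and 2, a setting chosen after seeing the data, HIRA KO before regeneration gave 0.10 for Nr1i3, 0.0056 for Nr1i2 and -0.17 for Cyp2c55, and after regeneration 0.0975 for Nr1i3. Regeneration in HIRA KO then gave -0.23 for Por, -0.22 for Cyp2b10 and -0.038 for Nr1i2, and the interaction -0.0058 for Nr1i3, -0.29 for Por and 0.46 for Cyp2c55.

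With 1 library left out, regeneration in control ran from -0.47 to 3.37 for Cyp2b9, -0.65 to 0.59 for Cyp2b10, -0.58 to 4.14 for Cyp2b13 and -0.077 to 0.16 for Por. In HIRA KO it ran from -0.87 to 0.28 for Nr1i3, -0.043 to 0.29 for Nr1i2, -0.0014 to 1.02 for Cyp2b10, -0.43 to 0.80 for Cyp2b13, -0.12 to 0.48 for Cyp2c55, -0.054 to 0.64 for Por and -0.63 to 0.020 for Alas1. The interaction ran from -0.49 to 0.67 for Nr1i3, -2.44 to 1.40 for Cyp2b9, -3.83 to 0.88 for Cyp2b13, -0.12 to 0.60 for Por and -0.038 to 0.75 for Alas1, and HIRA KO before regeneration from -0.29 to 0.50 for Alas1.

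The running number as a replicate block, also chosen after seeing the data, called 0 members in each comparison and gave -0.56 for the Cyp2b9 interaction. For regeneration and the interaction the block was the number within a genotype. For HIRA KO against control it was the number shared by both genotypes, which are different mice. Deviations of same-numbered libraries before and after regeneration correlated at 0.20, 0.28, 0.08 and 0.38 in the controls. In HIRA KO the values were 0.59, 0.39, 0.46 and 0.58, and 7 of the 8 libraries before regeneration and all 8 after it correlated best with their own number. The 0.08 of control library 3 was also its best match in both directions. As the columns name no mouse, the main fit did not pair the numbers and treated all 16 libraries as independent. Per the methods of the study, resected lobes and regenerated liver came from the same operated mice. Whichever numbers are pairs, the 2 times are therefore not independent repeats of a HIRA KO result. Over all genes these blocks called 104, 565, 3525, 4097 and 9 genes, against 9, 113, 2350, 2764 and 0 without them. DESeq2 called 375, 910 and 67 for HIRA KO before, after and the interaction. For HIRA KO after regeneration the 113 genes fell to 0 when only the groups compared were fitted, 51 without TMM, 61 and 68 with limma (log2(FPKM + 1) and + 0.1), 15 without the 4 HIRA KO libraries and 5 to 12 without 1 control library or HIRA KO library 1 or 2, and rose to 228 with filterByExpr and to 347 and 452 without HIRA KO library 3 and 4. Before regeneration the 9 became 5 without the 4 libraries, 5 and 25 with limma, 36 with no filter and 1 to 33 without 1 library. Regeneration gave 3858 in control without the 4 libraries and 1431 in HIRA KO with only the groups compared. The split into higher and lower calls moved from 46 and 67 to 39 and 12 without TMM for HIRA KO after regeneration, and from 1492 and 1272 to 2015 and 693 for regeneration in HIRA KO. Total counts without TMM shifted the median of all genes to 0.14 for regeneration in HIRA KO. The columns name neither mouse nor deletion approach. Beyond the running number as a stand-in for the mouse, no block by mouse and no term for the approach was run. At 26 to 189 counts per group, depth limits Cyp2b13.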
